A study of Mus musculus with 6 samples.

Results

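The translation initiation factor genes measured in mouse fetal liver (FL) are described here, in Pogz-KO and in Pogz-WT embryos at E14.5. A gene was taken where an Affymetrix probe set named that gene alone and its symbol began with Eif and a digit from 1 to 6, leaving out the Eif2ak kinases, Eif2s3x and Eif2s3y. Where several probe sets named a gene, the one with the highest mean over the 6 arrays stood for it, on a log2 scale. This gave 41 genes of 18193, which have 115 probe sets of the 45037 tested. The comparison was of 3 Pogz-KO (Pogz-/-) livers with 3 Pogz-WT (Pogz+/+) livers of the same congenic C57BL/6 background, each minced, filtered to single cells and hybridised to its own array. The Pogz-KO line came from a conditional allele, with loxP sites around the exons for the CENPB and DDE domains, crossed to β-actin-cre mice, so the gene was lost in the whole embryo and not in blood cells alone.

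Translation of most mRNAs begins when a small ribosomal subunit loaded with eIF1, eIF1A, eIF3, eIF5 and the initiator tRNA on eIF2 is brought to the 5′ cap by eIF4F and scans to a start codon. The eIF2B complex then recharges eIF2 with GTP, and eIF5B joins the large subunit. In erythroid cells, which fill the FL at this stage, initiation is tied to heme supply through the kinase that phosphorylates eIF2.

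None of the 41 genes passed the test over all 6 arrays (limma with trend and robust, Benjamini-Hochberg adjustment over 18193 genes), and the lowest adjusted p was 0.0884, for Eif5. Limma's plain fit and the methods' t-test also called 0 members, with 4 and 7 at an unadjusted p under 0.05. Among all genes, 0.0989% were called higher and 0.022% lower in Pogz-KO. With trend and robust, 8 members had an unadjusted p under 0.05 and were higher, against a background of 7.15% of all genes, and 6 were lower, against 10.6%. The Pogz-KO arrays lay wholly above the Pogz-WT arrays for 11 members (26.8%), where 10.8% of all genes did so, and wholly below for 8 (19.5%), where 16.3% did. The members are bright genes, 40 of the 41 lying above the median signal of all probe sets. A background of equally bright genes was not taken, so these shares are not read as particular to initiation factors. Those 19 genes and the leading gene of each complex are given array by array below, and the plot of members by array shows all 41.

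Pogz-WT replicate 1 stood apart from the other arrays, with a correlation of log2 signal of 0.794 to 0.810 with them, against 0.884 to 0.906 among the others. For actin, the 3′/5′ ratio of the control probe sets, a measure of how far transcripts were copied from their 3′ end, was 3.72 to 4.09 in Pogz-KO and 52.3, 5.50 and 6.63 in Pogz-WT replicates 1, 2 and 3. For Gapdh it was 4.87 to 5.08 in Pogz-KO and 15.3, 7.37 and 9.29 in Pogz-WT. Both ratios were lower in all 3 Pogz-KO arrays (exact permutation test, two-sided, p = 0.1 each, the smallest that 3 against 3 allows), and their part in the results below was not tested. Median intensity was 29.7 to 31.5 in Pogz-KO and 35.9 to 54.3 in Pogz-WT at an equal trimmed mean. The summed intensity of hepatoblast markers (5 of 6 listed were measured) was 16815 to 26761 in Pogz-KO and 27319 to 50271 in Pogz-WT. Afp, the brightest of them, was lower in Pogz-KO without overlap (log2 fold change −0.96, limma adjusted p = 0.122). Alb was above 0 (0.75, adjusted p = 0.296) and Ttr, Apoa1 and Apoa2 were below 0, all with overlapping arrays. Erythroid markers (7 of 9) summed to 39079 to 41578 in Pogz-KO and 56258 to 80553 in Pogz-WT. Macrophage markers (5 of 5) summed to 2706 to 3514 in Pogz-KO and 3798 to 5050 in Pogz-WT, and granulocyte markers (6 of 6) to 41240 to 47217 in Pogz-KO and 42502 to 75855 in Pogz-WT. The granulocyte sum hides differences among its genes: the granule gene Camp was 11.82, 11.60 and 11.99 in Pogz-KO and 10.49, 10.82 and 10.60 in Pogz-WT on the log2 scale, and was called higher over 6 arrays (1.17, limma adjusted p = 0.0290), and Ltf did not overlap either (0.59, adjusted p = 0.151), while S100a8 gave −0.57 (adjusted p = 0.249). Endothelial markers (3 of 3) summed to 131 to 141 in Pogz-KO and 145 to 251 in Pogz-WT, and stromal markers (3 of 3) to 124 to 166 in Pogz-KO and 160 to 256 in Pogz-WT. In RNA of a whole liver, fewer cells of a type and less RNA per cell cannot be told apart. The sums also hold for the deposited scaling only. With median centring of the 6 arrays, Alas2, Klf1, Tfrc, Epor and Gata1 moved from below 0 to 0.02, 0.04, 0.085, 0.21 and 0.33. Slc4a1 and Hba-a1 stayed below 0 (−0.61 and −1.38), Hba-a1 by a dim probe set with log2 signals of 2.81 to 6.31. The part of scaling in the sums was not tested. Both genotypes held embryos with high and with low Xist. The brightest of 4 Pogz probe sets was 9.16, 9.22 and 9.33 in Pogz-KO and 9.17, 9.03 and 8.95 in Pogz-WT (limma, adjusted p = 0.547). The other 3 were dimmer and differed by 2.17, 1.47 and −0.59 on the log2 scale (adjusted p of 0.187 to 0.436 in limma's fit of all probe sets), and Pogz-KO lay wholly above Pogz-WT in the first and second of these. Their places in the transcript were not given, so they check no genotype.

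Without Pogz-WT replicate 1, 5 members passed the test. Eif1b, Eif4b and Eif4a2 were higher in Pogz-KO, 3 genes against a background of 2.41% of all genes. Eif5 and Eif5a were lower, 2 genes against 2.07%. For each of the 5, the arrays of the genotypes did not overlap with replicate 1 kept either, as for 10.8% (higher) and 16.3% (lower) of all genes. These genes were picked by a test on 5 of the same 6 arrays, so the separation is no further support. With limma's plain fit of the same 5 arrays, 0 members were called, as were 0 of all genes. Only 2 Pogz-WT arrays then remain to estimate their spread, and precision is limited throughout by the number of arrays.

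**Figure D1:**
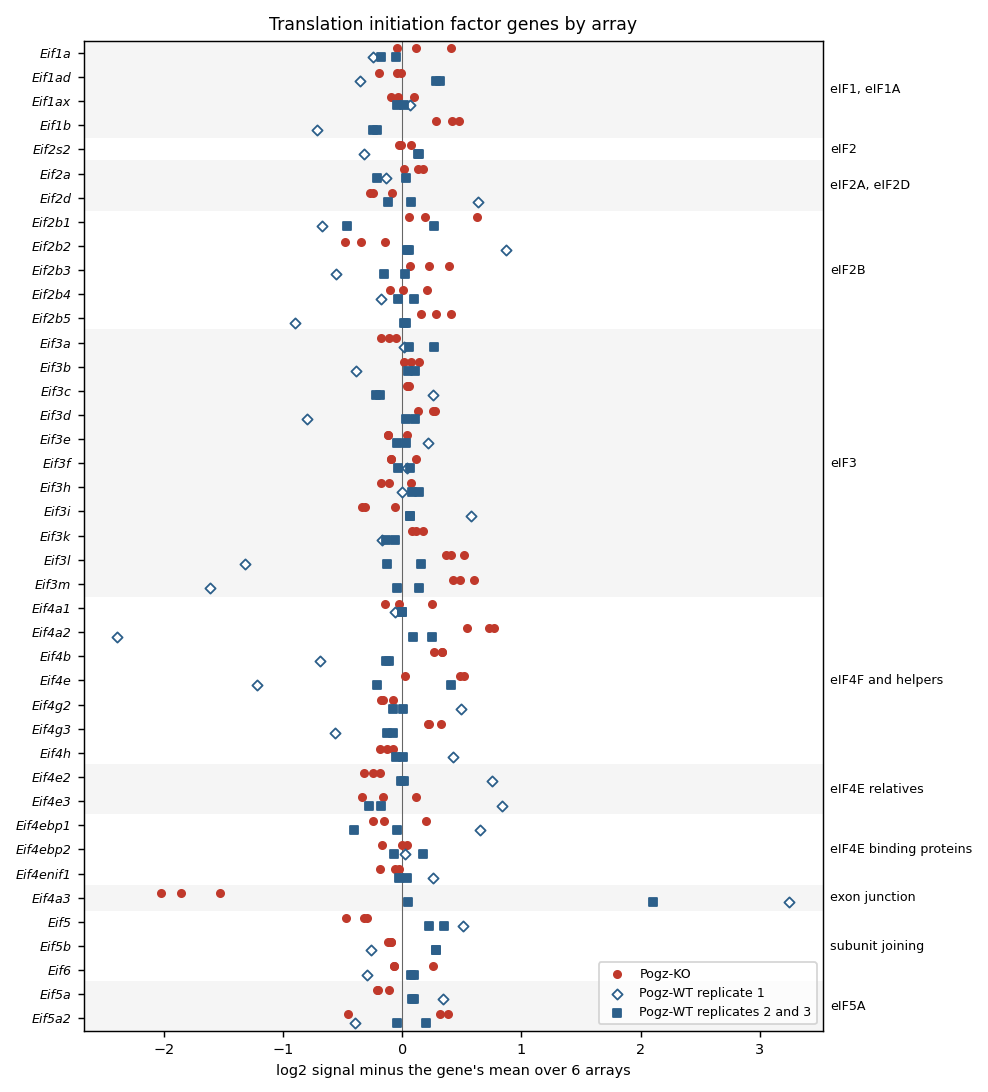
Log2 signal of each of the 41 translation initiation factor genes in each array, minus that gene's mean over 6 arrays, grouped by complex (red circles, Pogz-KO; open diamonds, Pogz-WT replicate 1; blue squares, Pogz-WT replicates 2 and 3). Pogz-WT replicate 1 was the lowest array for Eif4a2, Eif3m and Eif3l, and Eif5 and Eif1b separate the genotypes in every array.

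Of the factors that sit in the decoding center during scanning, Eif1b encodes a close relative of eIF1, which guards the choice of start codon. Its log2 signal (probe set 1428272_at, its only one) was 10.46, 10.65 and 10.60 in Pogz-KO and 9.46, 9.96 and 9.93 in Pogz-WT. All 3 Pogz-KO livers were above all 3 Pogz-WT livers, with the lowest Pogz-WT value in replicate 1. The means were 10.57 ± 0.10 in Pogz-KO and 9.78 ± 0.28 in Pogz-WT (SD, n = 3 each), a log2 fold change of 0.79 ± 0.17 (SE; limma, adjusted p = 0.102). Without Pogz-WT replicate 1 it was 0.62 ± 0.10 (SE; adjusted p = 0.00610), or 1.54-fold. The call held with quantile normalization of those arrays (0.59, adjusted p = 0.0124) and with median centring (0.90, adjusted p = 0.000451).

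The eIF1A genes gave smaller values. Eif1a was 9.02, 8.57 and 8.73 in Pogz-KO and 8.37, 8.57 and 8.43 in Pogz-WT, without overlap, though replicate 2 of both genotypes rounds to the same value (log2 fold change 0.32, limma adjusted p = 0.367). Its X-linked copy Eif1ax differed by −0.02 (adjusted p = 0.950), with overlapping arrays, and Eif1ad by −0.16 (adjusted p = 0.703). Eif1 itself was not analysed here.

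Eif5 encodes the factor that makes eIF2 hydrolyse its GTP once a start codon is found. It was the member with the lowest p in both fits. Its log2 signal (probe set 1454664_a_at) was 11.97, 11.94 and 11.79 in Pogz-KO and 12.77, 12.61 and 12.48 in Pogz-WT. Every Pogz-KO liver was below every Pogz-WT liver, and replicate 1 did not stand alone among the Pogz-WT arrays. The means were 11.90 ± 0.10 in Pogz-KO and 12.62 ± 0.14 in Pogz-WT (SD, n = 3 each; log2 fold change −0.72 ± 0.14, SE; limma, adjusted p = 0.0884). Without replicate 1 the change was −0.65 ± 0.09 (SE; adjusted p = 0.00260). It stayed negative with quantile normalization (−0.55, adjusted p = 0.0108) and with median centring (−0.38, adjusted p = 0.0226). The 5 probe sets of Eif5 did not give the same size: without replicate 1 their log2 fold changes were −0.65, −0.30, −0.37, −0.17 and −0.07 from the brightest to the dimmest, and only the brightest passed the test. Over 6 arrays the 2 dimmest were just above 0 (0.03 and 0.01), and the mean over the probe sets was −0.22.

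The other genes of subunit joining were closer to 0. Eif5b, the GTPase that joins the large subunit, was −0.20 over 6 arrays (limma, adjusted p = 0.572) and −0.39 without Pogz-WT replicate 1 (adjusted p = 0.0690), and was called only when those 5 arrays were also quantile normalized (−0.44, adjusted p = 0.0463). The dimmer probe sets of Eif5b were both higher in every Pogz-KO liver (0.27 and 1.90, limma over probe sets, adjusted p = 0.443 and 0.319). The latter lay below the median signal of all probe sets. The mean over the probe sets of Eif5b was 0.65, so its direction rests on the choice of probe set. Eif6, whose product keeps free large subunits from joining, was 0.08 (limma over genes, adjusted p = 0.843).

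Eif1b and Eif5, the called members with the largest rise and the largest fall without Pogz-WT replicate 1, are shown here by their promoter windows, from 250 bases before to 50 bases after the start of the transcript (RefSeq, GRCm38.p6). The Eif1b window is chr9:120492356-120492655, plus strand, and the Eif5 window is chr12:111537851-111538150, plus strand. Capitals mark CACGTG, the E-box bound by MYC and USF proteins, which reads the same on both strands. It occurs 1 time in the Eif1b window and 0 times in that of Eif5.
Eif1b: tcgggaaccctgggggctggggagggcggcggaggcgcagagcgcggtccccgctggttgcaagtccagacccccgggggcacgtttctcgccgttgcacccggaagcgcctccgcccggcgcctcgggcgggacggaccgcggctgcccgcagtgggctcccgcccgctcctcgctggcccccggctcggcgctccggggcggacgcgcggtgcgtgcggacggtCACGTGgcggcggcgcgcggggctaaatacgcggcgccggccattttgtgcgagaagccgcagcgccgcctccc
Eif5: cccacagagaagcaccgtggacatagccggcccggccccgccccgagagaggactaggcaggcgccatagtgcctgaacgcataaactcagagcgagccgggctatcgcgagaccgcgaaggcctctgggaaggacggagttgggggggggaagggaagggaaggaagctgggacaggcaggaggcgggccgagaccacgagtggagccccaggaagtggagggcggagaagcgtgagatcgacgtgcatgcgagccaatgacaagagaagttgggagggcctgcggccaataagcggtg
Of the 32 members with such a window, 9 held the motif (28.1%), which is found in windows of 2187 of 27025 genes (8.09%). They are Eif1b, Eif3a, Eif3f, Eif3k, Eif4a1, Eif4e, Eif4h, Eif5a and Eif5a2, genes with values on both sides of 0. A match is a description of the letters and not a site of binding.

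For eIF4F, the cap complex, and its helpers, 7 genes were measured, of which 5 had log2 fold changes above 0 and 2 below 0 over 6 arrays (median 0.51), and likewise without Pogz-WT replicate 1 (median 0.24), as deposited. Quantile normalization of the 6 arrays put 6 above 0 and median centring put all 7 there. Eif4g1 was not analysed here.

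Eif4b, which stimulates the helicase eIF4A, had log2 signals of 11.16, 11.17 and 11.09 in Pogz-KO and 10.14, 10.72 and 10.69 in Pogz-WT (probe set 1426380_at). The Pogz-KO livers were tightly grouped above the Pogz-WT livers. The means were 11.14 ± 0.04 in Pogz-KO and 10.52 ± 0.33 in Pogz-WT (SD, n = 3 each; log2 fold change 0.62 ± 0.18, SE; limma, adjusted p = 0.152). Without replicate 1 it was 0.43 ± 0.09 (SE; adjusted p = 0.0166), or 1.35-fold. It passed with quantile normalization of those arrays (0.47, adjusted p = 0.0176) and with median centring (0.70, adjusted p = 0.00109). The second probe set of Eif4b was also called without replicate 1 (0.62, limma over probe sets, adjusted p = 0.0128), and the dimmest was not (0.12, adjusted p = 0.789).

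Eif4a2, which encodes a paralog of the main helicase, had log2 signals of 11.06, 10.88 and 11.10 in Pogz-KO and 7.94, 10.58 and 10.42 in Pogz-WT (probe set 1450934_at, its only one). Replicate 1 was far below the other Pogz-WT livers, which were themselves below every Pogz-KO liver. The log2 fold change of 1.37 ± 0.58 over 6 arrays (SE; limma, adjusted p = 0.268) was 0.51 ± 0.10 without it (SE; adjusted p = 0.0175), or 1.43-fold. It passed with quantile normalization (0.52, adjusted p = 0.0211) and with median centring (0.78, adjusted p = 0.00146) of those arrays.

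The other eIF4F genes did not pass as deposited. Eif4g3, a scaffold that bridges the cap complex and eIF3, was 8.78, 8.80 and 8.90 in Pogz-KO and 8.01, 8.49 and 8.44 in Pogz-WT, without overlap (0.51, limma adjusted p = 0.205; without replicate 1, 0.36, adjusted p = 0.144). The mean over the probe sets of Eif4g3, the others being much dimmer, was −0.12, so its direction rests on the choice of probe set. Eif4h, a relative of Eif4b in function, was 12.67, 12.57 and 12.63 in Pogz-KO and 13.18, 12.70 and 12.76 in Pogz-WT (−0.26, adjusted p = 0.413). Its arrays were apart by little, and the value was 0.02 with quantile normalization without replicate 1. A dimmer probe set of Eif4h separated the genotypes in the opposite direction (0.61, limma over probe sets, adjusted p = 0.248). The mean over its probe sets was 0.09, so no direction is read for Eif4h. Eif4e, the cap-binding subunit, was 0.68 (limma over genes, adjusted p = 0.318) with overlapping arrays, and Eif4a1, the main helicase, was 0.05 (adjusted p = 0.897). Eif4g2, whose product lacks the eIF4E-binding part of eIF4G, was −0.28 (adjusted p = 0.402).

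**Figure D2:**
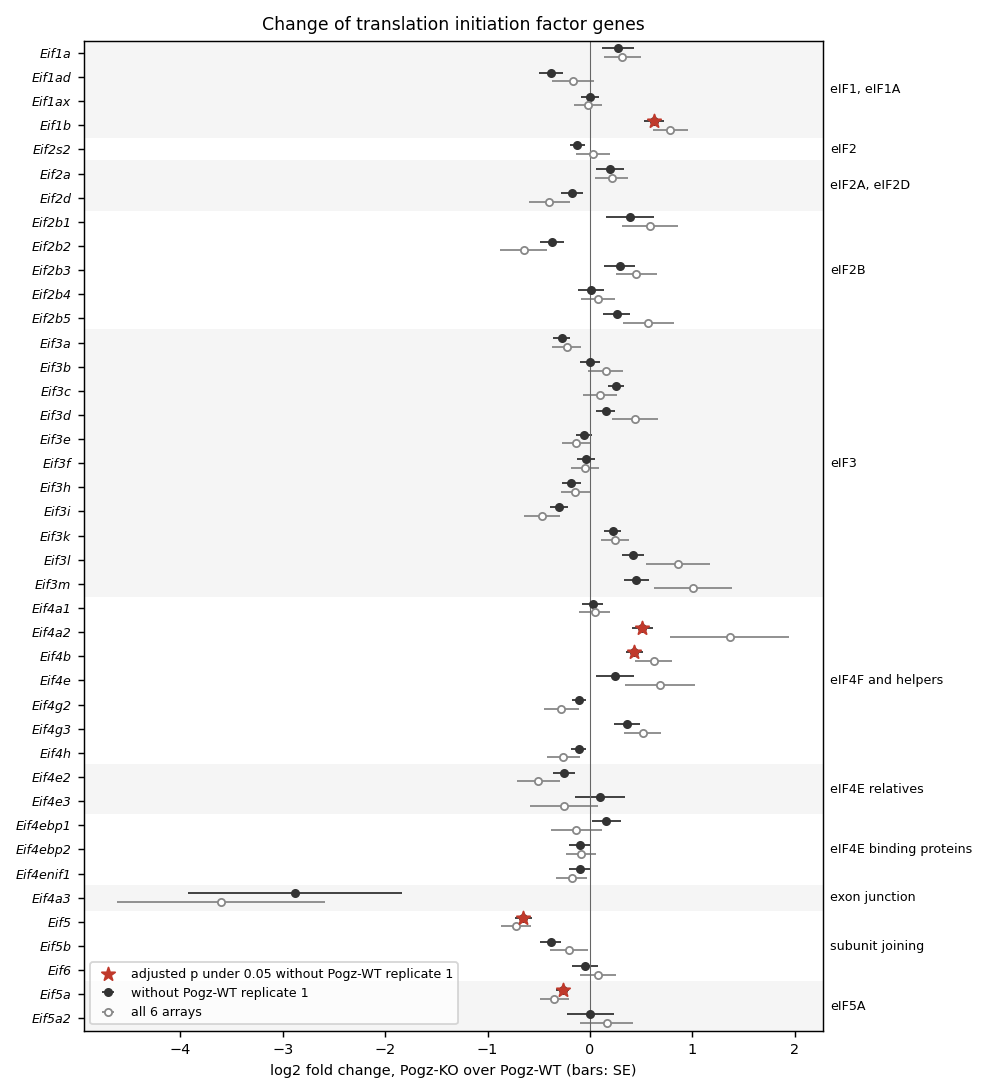
Log2 fold change of each of the 41 genes, Pogz-KO over Pogz-WT, with the SE of limma's fit as bars, over all 6 arrays (open grey) and without Pogz-WT replicate 1 (filled), and with stars at the 5 genes whose adjusted p was under 0.05 without that replicate. Eif1b, Eif4a2 and Eif4b lie to the right of 0 and Eif5 and Eif5a to the left, while Eif4a3, a dim probe set, lies far to the left with a wide bar.

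The eIF3 complex, the scaffold that binds the small subunit and links it to eIF4F, had 11 subunits measured. Over 6 arrays 6 were above 0 and 5 below (median 0.10, range −0.47 to 1.01), and without Pogz-WT replicate 1, 5 were above 0 and 6 below (median 0.00, range −0.30 to 0.45). None passed the test in either fit as deposited. The subunits nearest to it without replicate 1 lay on both sides of 0.

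Eif3l had log2 signals of 10.81, 10.77 and 10.92 in Pogz-KO and 9.08, 10.56 and 10.27 in Pogz-WT. Every Pogz-KO liver was above every Pogz-WT liver, with replicate 1 far below (0.86, limma adjusted p = 0.213; without replicate 1, 0.42, adjusted p = 0.0525). Eif3m showed the same layout, at 9.37, 9.25 and 9.19 in Pogz-KO and 7.15, 8.91 and 8.72 in Pogz-WT (1.01, adjusted p = 0.226; without replicate 1, 0.45, adjusted p = 0.0638). A dimmer probe set of Eif3m separated the genotypes in the opposite direction (−0.80, limma over probe sets, adjusted p = 0.239). Without replicate 1 that probe set was at −0.99 (adjusted p = 0.0505). The mean over probe sets was 0.10 for Eif3m and −0.09 for Eif3l, so both directions rest on the choice of probe set. Eif3k, which binds Eif3l within the complex, was 11.41, 11.44 and 11.50 in Pogz-KO and 11.16, 11.19 and 11.26 in Pogz-WT. Here replicate 1 lay with its group, and the value changed little without it (0.25, adjusted p = 0.357; without replicate 1, 0.22, adjusted p = 0.179). Eif3d, a subunit that can itself bind a cap, was 11.21, 11.06 and 11.18 in Pogz-KO and 10.13, 10.96 and 11.04 in Pogz-WT (0.44, adjusted p = 0.325). The mean over the probe sets of Eif3d was −0.45, with the other probe set at a mean log2 signal of 1.54, below the median of all probe sets.

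By their brightest probe sets, Eif3i and Eif3a stood below 0, without overlap. Eif3i, a subunit of the module near the mRNA entry channel, was 12.98, 12.71 and 12.73 in Pogz-KO and 13.62, 13.11 and 13.10 in Pogz-WT (−0.47, limma adjusted p = 0.217; without replicate 1, −0.30, adjusted p = 0.0879). Eif3a, the largest core subunit, was 12.72, 12.59 and 12.67 in Pogz-KO and 12.79, 12.83 and 13.04 in Pogz-WT (−0.23, adjusted p = 0.409; without replicate 1, −0.28, adjusted p = 0.0913). The other 3 probe sets of Eif3a were above 0 in both fits, and the mean over its probe sets was 0.51, so its direction rests on the choice of probe set. With quantile normalization of the 6 arrays Eif3a moved to 0.01 and Eif3i to −0.18. The remaining subunits Eif3b, Eif3c, Eif3e, Eif3f and Eif3h lay between −0.14 and 0.15 over 6 arrays, all with overlapping arrays. Eif3g was not analysed here.

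The eIF2B complex, which exchanges GDP for GTP on eIF2 and is blocked when eIF2 is phosphorylated, had all 5 subunits measured, 4 of them above 0 and 1 below in both fits (median 0.45 over 6 arrays and 0.26 without Pogz-WT replicate 1). Quantile normalization of the 6 arrays left 3 above 0. None passed the test as deposited. Eif2b5, the catalytic subunit, was 8.87, 8.61 and 8.74 in Pogz-KO and 7.56, 8.49 and 8.47 in Pogz-WT (0.57, limma adjusted p = 0.273; without replicate 1, 0.26, adjusted p = 0.317). Eif2b3, its partner in the catalytic part, was 8.47, 8.30 and 8.15 in Pogz-KO and 7.53, 8.10 and 7.93 in Pogz-WT (0.45, adjusted p = 0.280). Both genes were without overlap, with Pogz-WT replicate 1 the lowest array. The mean over the probe sets of Eif2b5 was −0.65, with the other probe set at a mean log2 signal of 4.68, below the median of all probe sets. Eif2b2, of the regulatory part, was below 0 by its brightest probe set, at 9.89, 9.55 and 9.68 in Pogz-KO and 10.90, 10.09 and 10.07 in Pogz-WT (−0.65, adjusted p = 0.201; without replicate 1, −0.37, adjusted p = 0.115). A dimmer probe set of Eif2b2 separated the genotypes in the opposite direction, at 8.30, 8.32 and 8.49 in Pogz-KO and 7.07, 7.06 and 8.13 in Pogz-WT (0.95, limma over probe sets, adjusted p = 0.199), and the mean over its 3 probe sets was 0.04, so no direction is read for this gene. Eif2b1 and Eif2b4 had overlapping arrays.

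Of eIF2 itself, which carries the initiator tRNA, the β subunit gene Eif2s2 was 12.81, 12.73 and 12.71 in Pogz-KO and 12.42, 12.88 and 12.87 in Pogz-WT, with overlap (0.03, limma adjusted p = 0.942). Eif2s1 was not analysed here. Eif2d, which can place a tRNA in the ribosome without eIF2, was 10.11, 9.95 and 9.92 in Pogz-KO and 10.83, 10.08 and 10.26 in Pogz-WT (−0.40, adjusted p = 0.319), and Eif2a was 0.21 (adjusted p = 0.505), both with overlap.

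The genes around the cap that hold initiation back gave no call. Eif4e2, whose product binds the cap without recruiting eIF4G, was 9.61, 9.55 and 9.48 in Pogz-KO and 10.55, 9.79 and 9.81 in Pogz-WT, without overlap (−0.51, limma adjusted p = 0.254; without Pogz-WT replicate 1, −0.26, adjusted p = 0.224). The second probe set of Eif4e2 separated the genotypes in the opposite direction (0.48, limma over probe sets, adjusted p = 0.265). The mean over its probe sets was 0.11, so no direction is read for Eif4e2. Eif4e3, another cap-binding relative, was −0.26 (limma over genes, adjusted p = 0.712). Among the proteins that bind eIF4E, Eif4enif1, which carries eIF4E into the nucleus, was 9.54, 9.70 and 9.67 in Pogz-KO and 9.99, 9.76 and 9.70 in Pogz-WT (−0.18, adjusted p = 0.553). The mTORC1 substrates Eif4ebp1 and Eif4ebp2 were −0.13 and −0.09 (adjusted p = 0.804 and 0.778). These 3 genes had overlapping arrays, and all 3 were above 0 with median centring.

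Eif5a encodes the hypusine-bearing factor that helps ribosomes through difficult peptide bonds. Its brightest probe set (1451470_s_at) was 13.82, 13.72 and 13.73 in Pogz-KO and 14.27, 14.03 and 14.01 in Pogz-WT. The arrays did not overlap. The means were 13.75 ± 0.05 in Pogz-KO and 14.10 ± 0.15 in Pogz-WT (SD, n = 3 each; log2 fold change −0.35 ± 0.14, SE; limma, adjusted p = 0.241). Without replicate 1 it was −0.26 ± 0.06 (SE; adjusted p = 0.0382), and with quantile normalization of those arrays −0.04 (adjusted p = 0.790), which ended the call. Median centring of those arrays ended it as well (0.01, adjusted p = 0.976). The dimmer probe set of Eif5a had overlapping arrays, at 0.12 over 6 arrays and 0.02 without replicate 1 (limma over probe sets, adjusted p = 0.748 and 0.948). The paralog Eif5a2 was 0.16 (limma over genes, adjusted p = 0.768).

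Eif4a3, a helicase of the eIF4A family that sits in the exon junction complex, was the 1 member whose mean lay below the median log2 signal of all probe sets, 5.17. It was 0.65, 0.81 and 1.14 in Pogz-KO and 5.92, 2.72 and 4.78 in Pogz-WT. The arrays did not overlap, but only 1 of the 6 was above that median (log2 fold change −3.60 ± 1.01, SE; limma, adjusted p = 0.147; without Pogz-WT replicate 1, −2.88, adjusted p = 0.168), so its size is not read as a fold.

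Different probe sets of the same gene often disagreed. In 27 members with 2 or more probe sets above the median signal, those probe sets lay on both sides of 0 in 20 over 6 arrays and in 15 without Pogz-WT replicate 1. Fitted over all probe sets without replicate 1, 10 probe sets of the members were higher, against a background of 1.45% of probe sets, and 3 were lower, against 1.22%, in 12 members. Over all 6 arrays limma called 0 of them. At an unadjusted p under 0.05, 21 of the 115 were higher, against 5.69% of all probe sets, and 14 were lower, against 9.91%.

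Probe sets other than the brightest were called without replicate 1 in 8 genes, Eif4b among them. The dimmest of 3 probe sets of Eif4a1 was 10.51, 10.46 and 10.50 in Pogz-KO and 7.82, 10.03 and 9.64 in Pogz-WT, 0.65 without replicate 1 (limma over probe sets, adjusted p = 0.0189), where the brightest gave 0.02. In Eif4g2 the third was 10.02, 10.26 and 10.29 in Pogz-KO and 8.41, 9.66 and 9.64 in Pogz-WT, 0.54 without replicate 1 (adjusted p = 0.0305), where the brightest gave −0.10. Both probe sets were higher in every Pogz-KO liver, and replicate 1 was the lowest of the Pogz-WT livers in each. In Eif3c the fourth was 11.06, 11.06 and 10.91 in Pogz-KO and 10.44, 10.35 and 10.49 in Pogz-WT, 0.59 without replicate 1 (adjusted p = 0.0101), and replicate 1 lay among its group. The second of Eif4ebp1 was 9.53, 9.52 and 9.20 in Pogz-KO and 8.96, 8.21 and 8.65 in Pogz-WT, 0.99 without replicate 1 (adjusted p = 0.0101). In Eif2s2, by contrast, the fourth was 11.44, 11.23 and 11.21 in Pogz-KO and 12.86, 11.75 and 11.93 in Pogz-WT, −0.55 without replicate 1 (adjusted p = 0.0155). In Eif3a the dimmest of 4 was 7.55, 8.16 and 8.57 in Pogz-KO and 6.39, 7.16 and 6.21 in Pogz-WT, 1.41 without replicate 1 (adjusted p = 0.0409), opposite to its brightest probe set. In Eif3e the third was 11.94, 11.92 and 11.85 in Pogz-KO and 10.69, 11.63 and 11.46 in Pogz-WT, 0.36 without replicate 1 (adjusted p = 0.0495). All of these separated the genotypes in every array. The brightest probe set of the same gene did so in Eif4b, in the same direction, and in Eif3a, in the opposite one, and overlapped in the other 6. In Affymetrix's names, the endings _x_at and _s_at mark probe sets that can share probes with other transcripts. The brightest probe set had _x_at in 5 members and _s_at in 3, Eif5a among them, and the level of such a gene is uncertain where near-identical copies exist.

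**Figure D3:**
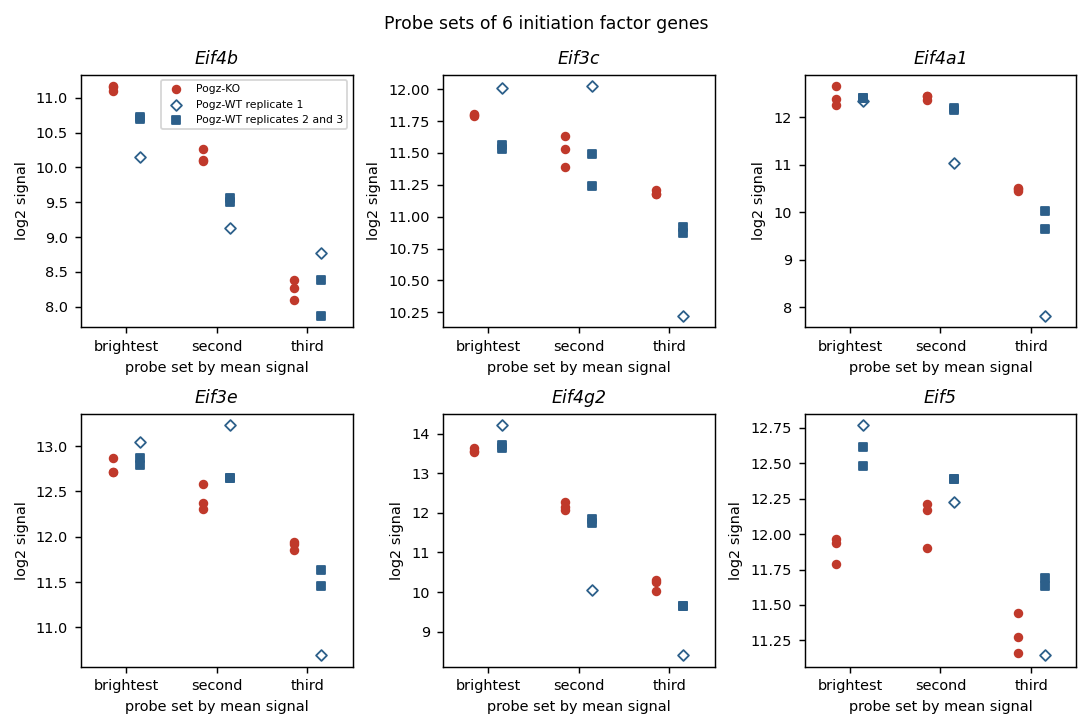
Log2 signal in each array for the 3 brightest probe sets of Eif4b, Eif3c, Eif4a1, Eif3e, Eif4g2 and Eif5, in order of mean signal (red circles, Pogz-KO; open diamonds, Pogz-WT replicate 1; blue squares, Pogz-WT replicates 2 and 3). In Eif4a1 and Eif4g2 the dimmer probe sets place replicate 1 well below the other Pogz-WT arrays and the brightest does not, while the brightest probe set of Eif5 has all Pogz-KO arrays below all Pogz-WT arrays.

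As a group, the members lay on both sides of 0. Their median log2 fold change was 0.03 over 6 arrays, against −0.17 for all 18193 genes, with 21 members above 0 and 20 below. Without Pogz-WT replicate 1 the medians were 0.00 for the members and −0.10 for all genes. The split depended on the scaling: quantile normalization of the 6 arrays gave 25 above 0 and 16 below, and median centring 36 above and 5 below, since centring moved the median of all genes to 0.29. The difference between the medians, members minus all genes, was 0.20 as deposited and with median centring, and 0.11 with quantile normalization. The members were brighter than most genes, and a comparison with equally bright genes was not made.

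The calls without Pogz-WT replicate 1 moved with scaling as well. With quantile normalization 4 members were higher, against 2.08% of all genes, and 2 were lower, against 1.64%. The higher genes were Eif1b, Eif4b, Eif4a2 and Eif3c, and the lower ones Eif5 and, by its brightest probe set alone, Eif5b. With median centring 13 were higher, against 10.1% of all genes, and only Eif5 was lower, against 0.55%. Relative to the median of all genes in the same fit, Eif1b stood 0.72 above and Eif5 fell by 0.56 without replicate 1 as deposited, against 0.62 above and a fall by 0.53 with quantile normalization. Eif1b, Eif4b, Eif4a2 and Eif5 were thus called under all 3 scalings of the 5 arrays and under none of the 6.

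**Figure D4:**
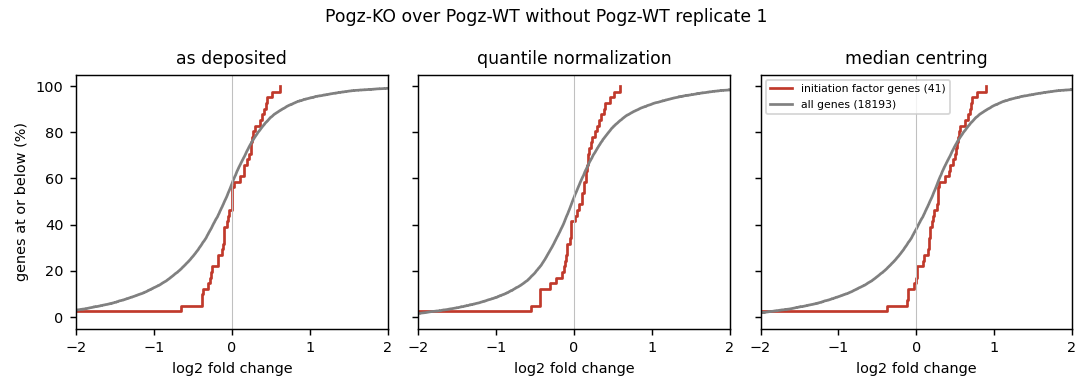
Cumulative share of genes (%) at or below each log2 fold change, Pogz-KO over Pogz-WT without Pogz-WT replicate 1, for the 41 initiation factor genes (red) and all 18193 genes (grey), as deposited, after quantile normalization and after median centring; the axis shows changes from −2 to 2. Apart from Eif4a3, which lies off the axis, the members range from −0.65 to 0.62 as deposited, and both curves shift to the right with median centring, to medians of 0.28 and 0.18.

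Around the initiation factors, 76 of 80 listed translation genes were measured, and 0 of the 76 passed limma's test over 6 arrays. At an unadjusted p under 0.05, 17 were higher, against 7.15% of all genes, and 10 lower, against 10.6%. Without Pogz-WT replicate 1, 11 did (limma, adjusted over all genes), 6 of them higher, against 2.41% of all genes, and 5 lower, against 2.07%. The split depended on the scaling of those arrays. Quantile normalization gave 9 higher, against 2.08% of all genes, and 3 lower, against 1.64%. Median centring gave 26 higher, against 10.1%, and 1 lower, against 0.55%. Median centring ended the lower calls of Eif2ak1 (adjusted p = 0.0741), Ppp1r15a (0.334), Eef2k (0.572) and Slbp (0.700), and quantile normalization those of Slbp (0.217) and Pym1 (0.0649). In the eIF2 kinase and phosphatase list, as deposited without replicate 1, 0 of 8 were higher, against 2.41% of all genes, and 2 were lower, against 2.07%. Eif2ak1, the heme-regulated kinase that halts initiation in erythroid cells short of heme, was 10.19, 10.23 and 10.04 in Pogz-KO and 11.12, 10.71 and 10.84 in Pogz-WT. No arrays overlapped (−0.74, adjusted p = 0.0972; without replicate 1, −0.62, adjusted p = 0.00687). Ppp1r15a, which brings a phosphatase to eIF2, was 10.82, 10.79 and 10.56 in Pogz-KO and 11.39, 11.12 and 11.27 in Pogz-WT (without replicate 1, −0.47, adjusted p = 0.0260).

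At the end of translation, 2 of 7 termination and recycling genes were called higher without replicate 1, against 2.41% of all genes, and 0 lower, against 2.07%. Abce1, the ATPase that splits ribosomes, was 10.24, 10.28 and 10.50 in Pogz-KO and 8.49, 9.53 and 9.46 in Pogz-WT (1.18, limma adjusted p = 0.0972; without replicate 1, 0.85, adjusted p = 0.00247). Gspt1, the release factor GTPase, was 10.32, 10.26 and 10.33 in Pogz-KO and 8.08, 9.68 and 9.67 in Pogz-WT (without replicate 1, 0.63, adjusted p = 0.00527). Both separated the genotypes in every array, with replicate 1 lowest. Among 18 aminoacyl-tRNA synthetases only Cars, for cysteine, was called (higher, against 2.41% of all genes), at 7.94, 8.14 and 7.88 in Pogz-KO and 6.70, 7.05 and 6.74 in Pogz-WT. Its change was 1.16 over 6 arrays (limma, adjusted p = 0.0765) and 1.09 without replicate 1 (adjusted p = 0.00667). The mean over the probe sets of Cars was −0.08 over 6 arrays, so its direction rests on the choice of probe set.

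Of 14 elongation genes, Dph3 (0.67, limma adjusted p = 0.0156), needed to make the diphthamide of eEF2, and Eef1e1 (0.67, adjusted p = 0.0217), a part of the synthetase complex, were called higher without replicate 1, against 2.41% of all genes. Eef2k (−0.40, adjusted p = 0.0335), the kinase that inhibits eEF2, was called lower, against 2.07%. Among 18 partners of scanning and initiation, Mcts1 (0.57, adjusted p = 0.00932), which works with Denr on reinitiation, was called higher, against the same 2.41%. Slbp (−0.35, adjusted p = 0.0264), which binds the stem-loop of histone mRNAs, and Pym1 were called lower, against 2.07%, though Slbp was −0.20 with quantile normalization and −0.07 with median centring. Pym1, which strips exon junction complexes from translated mRNA, was 2.91, 2.94 and 2.67 in Pogz-KO and 5.87, 5.55 and 5.95 in Pogz-WT (without replicate 1, adjusted p = 0.0417), all Pogz-KO arrays being below the median signal of all probe sets. Pogz-WT replicate 1 was the lowest array for Dph3, Eef1e1 and Mcts1, at 7.16, 9.07 and 8.71. Over 6 arrays, the means over a gene's probe sets were −0.14 for Eif2ak1, −0.11 for Eef2k and 0.38 for Gspt1. Their brightest probe sets gave −0.74, −0.44 and 1.16. Apart from Cars, every called gene of these lists kept its side of 0 with that mean. In the list of mTORC1 and MNK signalling genes, 0 of 11 were called by limma in either fit. At an unadjusted p under 0.05, 1 passed over 6 arrays and 0 without replicate 1.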

How the data were processed

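RNA of FL cells, 100 ng a sample by the labels, was labelled from the 3′ end and hybridised to Affymetrix mouse arrays. The authors deposited 1 linear intensity for each probe set and array. The labels name Affymetrix Expression Console for this step. Which version and which algorithm it ran is not given in the sources used here. Each array has a 2% trimmed mean of 150, and medians differ, so the arrays were scaled and not quantile normalized.

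Log2 was taken with no pseudocount. After 64 controls were left out, 45037 probe sets remained, of which 34945 name 1 gene, 932 name several and 9160 are unnamed here. Genotypes were compared with limma 3.58.1 in R 4.3.3 (lmFit, eBayes with trend and robust, genotype as the only term, two-sided p, Benjamini-Hochberg over the 18193 genes, called at adjusted p under 0.05). The fit was tested on simulated data with independent noise, in which no array stood apart. That test does not cover an array such as Pogz-WT replicate 1. Fold changes are Pogz-KO over Pogz-WT. Replicates are labelled biological. Their numbers did not pair the arrays: deviations from the group means of arrays with the same number correlated at 0.008, −0.004 and −0.005.

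The members, the lists and the alternatives were chosen with earlier results of these data known. Values by array are given for members called in either fit, the member of each complex with the largest moderated t, members whose arrays do not overlap, and, of the other translation genes, those called. Dph3, Eef1e1, Eef2k, Mcts1 and Slbp are exceptions, given by log2 fold change and adjusted p. Probe sets other than the brightest were picked after their values were seen. Marker sums are of linear intensities. Symbols come from the platform annotation, and chromosomes and promoter windows from RefSeq tables of GRCm38.p6. Alternatives were other scalings, moderation, tests, filters and choices of probe set, a pseudocount of 16, the replicate block, a Y-linked covariate and leaving out each array.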

Additional observations from a re-analysis of the deposited data

How the results depend on the processing

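The count of initiation factor genes called, 0 over 6 arrays, was 0 to 5 when each array was left out in turn, with 5 only without Pogz-WT replicate 1, and 0 with 1 Pogz-KO array or either other Pogz-WT array left out. Without that replicate it was 6 with quantile normalization, 14 with median centring and 0 with limma's plain fit. At an adjusted p under 0.1 over 6 arrays it was 1. Over all genes 22 were called: leaving out 1 array gave 0 to 815 (815 without Pogz-WT replicate 1, 0 without Pogz-KO replicate 1 or 2 or Pogz-WT replicate 3, 1 without Pogz-KO replicate 3), quantile normalization 9, median centring 4, the plain fit 0, the Y-linked covariate 0, the mean of a gene's probe sets 5 and the methods' t-test 1 after adjustment. Without Pogz-WT replicate 1, the all-gene count was 676 with quantile normalization, 1944 with median centring and 0 with the plain fit. Other translation genes called, 0 over 6 arrays, were 0 to 11 with 1 array left out, and, without Pogz-WT replicate 1, 12 with quantile normalization and 27 with median centring. The members' median, 0.03, was −0.01 to 0.03 with 1 array left out, 0.49 with median centring and 0.28 with median centring without Pogz-WT replicate 1. The replicate block called 65 genes, 0 members and 1 other translation gene. The causes of these shifts were not tested, except that centring adds a constant to each array. The methods' t-test gave 7 members with an unadjusted p under 0.05 and the plain fit 4. Single members kept their side of 0 in all but 81 of 696 comparisons with an alternative. Some alternatives, such as the plain fit, the filter and the replicate block, cannot change a gene's log2 fold change. Their agreement was fixed in advance, so the count overstates how stable the directions were.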

Other observations

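The γ subunit of eIF2 is encoded on both sex chromosomes, by genes outside the list above. Eif2s3y, on Y, had log2 signals of 2.72, 4.23 and 9.06 in Pogz-KO and 7.16, 9.08 and 4.82 in Pogz-WT. It was low in the 3 embryos with high Xist, Pogz-KO replicates 1 and 2 and Pogz-WT replicate 3, where Xist was 12.8, 12.9 and 12.9, against 4.81 to 7.10 in the others. Eif2s3x, its X-linked partner, had log2 signals of 12.03, 12.08 and 11.73 in Pogz-KO and 10.38, 11.46 and 11.93 in Pogz-WT, with overlap (limma, adjusted p = 0.293). Pogz-KO thus held 2 embryos with high Xist and Pogz-WT 1.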
